A study of Homo sapiens with 12 samples.

Results

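Gastric epithelial identity was followed through 9 genes that mark cells of the normal stomach lining: CLDN18, CTSE, TFF1, TFF2, ANXA10, LYZ, AGR2, MUCL3 and SOX2. They were taken by symbol, and of several clusters for a symbol the one brightest on average was used, out of 14884 genes with a symbol. All 9 had a cluster, and together the 9 symbols carried 12 clusters. Transcripts were measured on Affymetrix GeneChip Human 2.0 ST arrays in AGS, MKN1 and SNU601, which are established cell lines from gastric cancers. Cells were treated with the solvent DMSO, with Rhosin, a small molecule that blocks the activation of the GTPase RhoA, or with JK136 or JK139, compounds known here only by code name. Every combination of line and treatment had 1 array, so a line had 4 arrays and a treatment had 3. The labels state no dose, no time of exposure and no separate cultures, and the groups share their medium, RPMI-1640 with 10% fetal calf serum. MKN1 comes from an adenosquamous carcinoma, a tumour with glandular and squamous parts, and each line derives from 1 tumour.

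The stomach lining is renewed from progenitor cells that give rise to mucus-secreting pit cells at the surface, mucous neck cells and enzyme-secreting chief cells deeper in the gland. Pit cells secrete TFF1, a trefoil peptide that protects the mucus layer, and neck cells secrete TFF2. SOX2 is a transcription factor that patterns the foregut and remains in the adult stomach, whereas the intestine relies on CDX2. Gastric tumours keep these programmes to different degrees, and CLDN18 is the target of an approved antibody.

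Signals had been summarised by RMA, the robust multi-array average, on the log2 scale, where a difference of 1 is 2-fold. Array medians over 53617 clusters lay between 4.14 and 4.20, and arrays of 1 line correlated at r between 0.978 and 0.988. With 4 arrays a line, precision depends on their number and on the spread of each gene between arrays. No detection calls were used, and a gene was called above background in a line when its mean over the 4 arrays exceeded 4.61, the 40th percentile of the means of all genes with a symbol. By this measure 58.3% of genes lay above background in AGS, against 60.5% for MKN1 and 57.9% for SNU601. Where a gene lay above background in 1 of 2 lines compared, the fold is a lower bound, written as at least N-fold: the bright line's mean against the dim arrays, each raised to 4.61 where it was lower. Fitted differences beside such bounds show only what limma tested. Probes differ in affinity, so levels are compared between arrays within a gene and not between genes.

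RefSeq promoters (GRCh38.p14, 250 bases before to 50 after a start) were matched for 6 of the 9 members: CTSE, CLDN18 with 2 starts, SOX2, ANXA10, MUCL3 and AGR2. The promoters printed here belong to CTSE, a gene high in both AGS and SNU601, to CLDN18, MUCL3 and AGR2, genes high in SNU601 alone, and to SOX2, the member with the largest difference by treatment. Capitals mark GATAA or its reverse complement TTATC, the core letters bound by GATA factors.
CTSE (chr1:206023846-206024145, minus strand): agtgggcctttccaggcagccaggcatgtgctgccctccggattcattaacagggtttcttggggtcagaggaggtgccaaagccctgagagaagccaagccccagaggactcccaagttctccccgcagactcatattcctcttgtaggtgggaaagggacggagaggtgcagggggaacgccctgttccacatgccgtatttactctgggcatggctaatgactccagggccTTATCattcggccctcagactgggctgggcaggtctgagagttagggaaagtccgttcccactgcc
CLDN18 (chr3:137998566-137998865, plus strand): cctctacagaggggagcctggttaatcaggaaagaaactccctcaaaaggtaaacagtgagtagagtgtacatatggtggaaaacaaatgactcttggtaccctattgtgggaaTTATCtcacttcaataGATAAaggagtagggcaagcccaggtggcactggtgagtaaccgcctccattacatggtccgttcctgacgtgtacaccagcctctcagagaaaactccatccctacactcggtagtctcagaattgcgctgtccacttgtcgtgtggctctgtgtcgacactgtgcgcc
MUCL3 (chr6:30940723-30941022, plus strand): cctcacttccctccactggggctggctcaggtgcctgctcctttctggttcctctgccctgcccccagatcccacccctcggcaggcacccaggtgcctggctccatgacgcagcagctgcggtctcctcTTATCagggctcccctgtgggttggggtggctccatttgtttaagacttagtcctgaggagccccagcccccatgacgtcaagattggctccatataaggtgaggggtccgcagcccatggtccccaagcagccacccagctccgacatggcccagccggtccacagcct
AGR2 (chr7:16804950-16805249, minus strand): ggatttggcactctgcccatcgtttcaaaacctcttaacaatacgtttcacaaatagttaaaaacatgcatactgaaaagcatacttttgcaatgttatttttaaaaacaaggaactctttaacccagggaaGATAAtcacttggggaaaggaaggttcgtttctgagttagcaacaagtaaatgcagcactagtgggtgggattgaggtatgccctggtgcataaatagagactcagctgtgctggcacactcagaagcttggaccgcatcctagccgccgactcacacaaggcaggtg
SOX2 (chr3:181711675-181711974, plus strand): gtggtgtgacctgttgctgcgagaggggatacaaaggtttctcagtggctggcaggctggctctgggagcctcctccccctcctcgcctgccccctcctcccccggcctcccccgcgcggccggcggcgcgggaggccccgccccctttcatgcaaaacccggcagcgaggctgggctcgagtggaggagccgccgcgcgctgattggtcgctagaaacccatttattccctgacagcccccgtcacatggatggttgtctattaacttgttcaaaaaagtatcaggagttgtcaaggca

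The GATAA letters, searched on both strands, occurred in 5 of the 7 promoters of the 6 matched members and in 22.7% of all 35116 promoters in the table. Counted from the start, CTSE held them at position −16, MUCL3 at −120, AGR2 at −118 and ANXA10 at −39. CLDN18 held them at −136 and −120 from the start printed here and not at its other start, and the SOX2 window held none. TGTTTAC, a forkhead motif, occurred in CLDN18 and in 3.42% of all promoters, and AACAAT, a SOX motif, in AGR2 and ANXA10 and in 10.1%. TATAAA, the TATA box, occurred in ANXA10 and in 11.5%. A match is a description of these letters and no measurement of binding.

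The 3 lines kept different parts of the gastric programme. SNU601 had all 9 genes above background, AGS had CTSE, LYZ, TFF1 and SOX2, and MKN1 had CTSE. Over all 14884 genes, 184 (1.24%) lay above background in SNU601 alone, as did 5 of the 9 members, and 359 (2.41%) in AGS and SNU601 without MKN1, as did 3 members. In MKN1 the mean of TFF1 was 4.60, at the background level of 4.61, and without the DMSO or the JK136 array of MKN1 it was counted above, which made 2 members. With the level at the 30th percentile MKN1 had 4. The arrays measured bulk RNA, so fewer cells with a transcript and less of it per cell cannot be told apart.

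**Figure D1:**
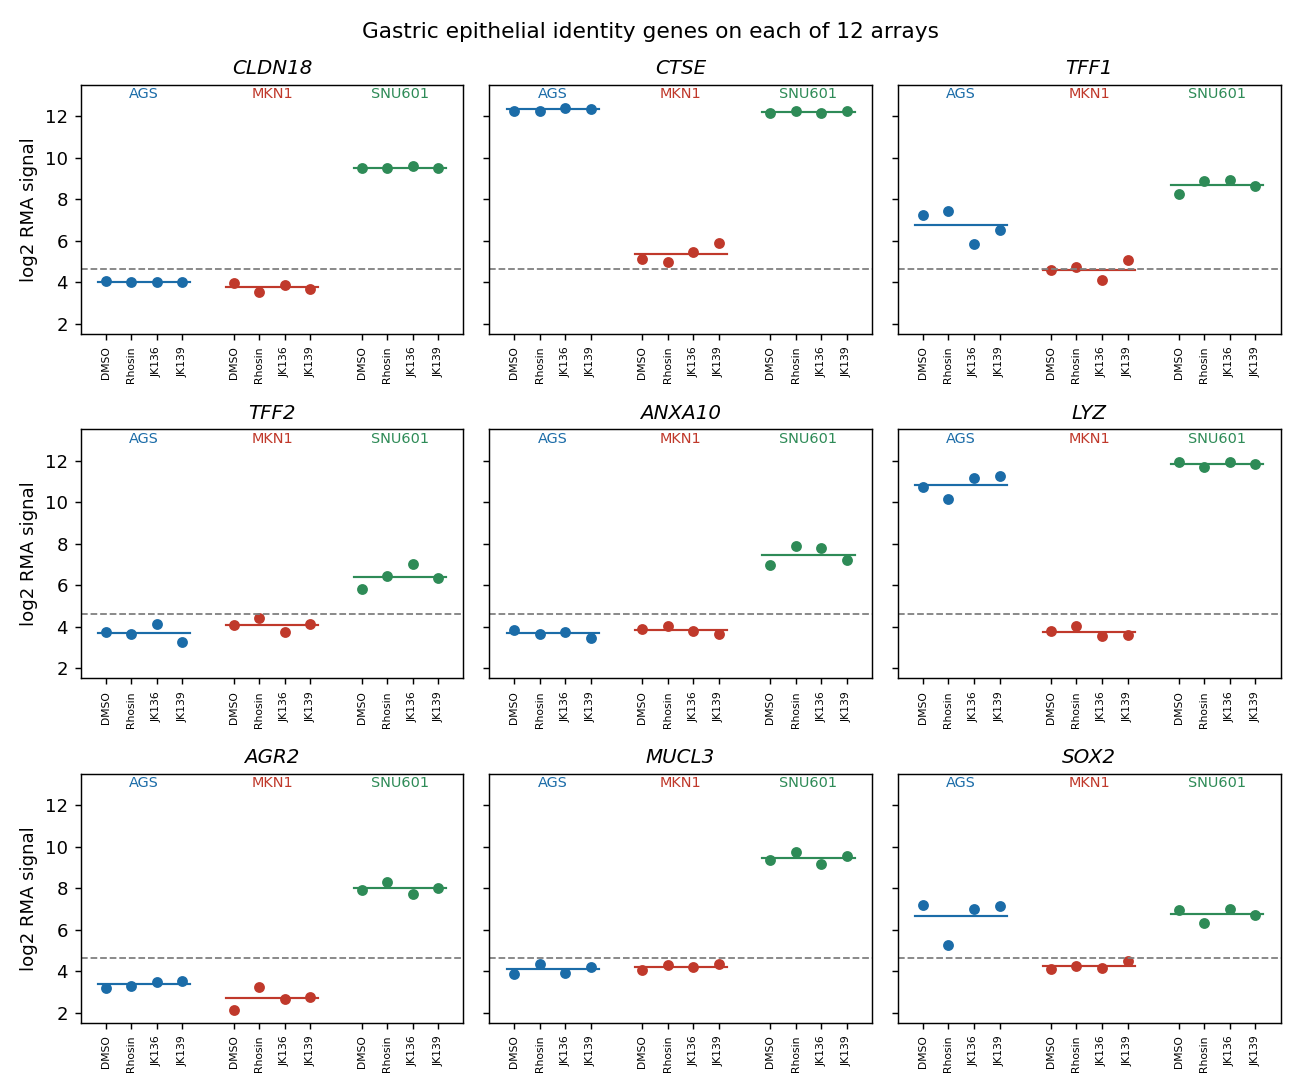
The log2 RMA signal of each of the 9 genes (vertical axis) is plotted for every array, by treatment within line, with a short line at the mean of the 4 arrays and a dashed line at the background level of 4.61. All SNU601 points lie above the dashed line, MKN1 points lie near or under it except for CTSE, and the SOX2 point of AGS with Rhosin lies at 5.26 under its 3 neighbours.

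Among the enzymes, CTSE codes for cathepsin E, an aspartic protease of surface mucous cells. In AGS it read 12.27 with DMSO, 12.26 with Rhosin, 12.39 with JK136 and 12.36 with JK139, and in SNU601 12.14, 12.25, 12.16 and 12.22. These values lie near the upper end of the arrays, where the highest value was 13.0. MKN1 read 5.09, 4.98, 5.44 and 5.88 in the same order, above background and far under every array of the other lines. MKN1 minus AGS was −6.97 ± 0.13 (log2, SE, 4 arrays a line, limma adjusted p 2.13e-12), rank 3 from the bottom of the 8930 genes tested. AGS and SNU601 did not pass the test against each other, with a difference of −0.13 and a 95% interval from −0.41 to 0.16.

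LYZ codes for lysozyme, an antibacterial enzyme made by gastric glands and by macrophages. SNU601 read 11.92, 11.68, 11.91 and 11.85 for DMSO, Rhosin, JK136 and JK139, AGS 10.73, 10.17, 11.17 and 11.25, and MKN1 3.77, 4.04, 3.52 and 3.61. The 3 lines did not overlap, and MKN1 lay at background on all 4 arrays. LYZ was at least 74.7-fold higher in AGS than in MKN1 and at least 150.2-fold higher in SNU601 than in MKN1 (limma adjusted p 3.93e-11 and 1.28e-11). SNU601 exceeded AGS by 1.01 ± 0.20 (limma adjusted p 9.79e-04). A second LYZ cluster gave the same order, with means of 7.76 in AGS, 2.61 in MKN1 and 8.93 in SNU601.

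Of 6 leukocyte markers listed, 3 had a cluster: CD68, CD14 and LAPTM5. CD68, a lysosomal protein of many cell types, averaged 6.14 in AGS, 8.65 in MKN1 and 8.33 in SNU601. CD14 had 3.33, 4.67 and 3.46, and LAPTM5 4.33, 6.88 and 4.32. All 3 were highest in MKN1, and CD14 and LAPTM5 lay at background in AGS and SNU601. Their part in the LYZ values was not tested.

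TFF1 and TFF2 are neighbouring genes of chromosome 21. TFF1 read 8.26, 8.86, 8.94 and 8.65 in SNU601 for DMSO, Rhosin, JK136 and JK139, and 7.24, 7.40, 5.86 and 6.50 in AGS. The SNU601 arrays were all higher than the AGS arrays, which spread over 1.55. MKN1 read 4.57, 4.71, 4.08 and 5.05, on both sides of the background level. TFF1 was higher in SNU601 than in AGS by 1.93 ± 0.27 (adjusted p 7.31e-05) and at least 4.02-fold higher in AGS than in MKN1 (adjusted p 1.70e-05), each from limma.

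TFF2 differed from its neighbour in that AGS, too, lay at background. SNU601 read 5.83, 6.44, 7.02 and 6.36, AGS 3.73, 3.65, 4.10 and 3.25, and MKN1 4.07, 4.40, 3.72 and 4.12. SNU601 was at least 3.50-fold higher than either other line (limma adjusted p 7.67e-07 against AGS and 1.39e-06 against MKN1). The ranges of AGS and MKN1 overlapped, and their difference of 0.40 did not pass the test (limma adjusted p 0.121). TFF3, the remaining trefoil gene beside them and more typical of intestine, averaged 5.64 in SNU601, 5.12 in AGS and 4.95 in MKN1, with SNU601 above AGS by 0.53 (limma adjusted p 2.25e-04).

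The remaining genes of SNU601 alone were CLDN18, MUCL3, AGR2 and ANXA10. These and TFF2 passed the filter on low values through SNU601 only, so their p-values for SNU601 are given as a description. CLDN18 codes for claudin-18, a tight junction protein whose alternative first exons give a stomach and a lung form, which these values do not separate. It read 9.50, 9.47, 9.59 and 9.52 in SNU601, 4.05, 4.01, 3.98 and 4.03 in AGS and 3.98, 3.53, 3.86 and 3.66 in MKN1, for DMSO, Rhosin, JK136 and JK139. SNU601 was at least 30.1-fold higher than either other line (limma adjusted p 1.67e-12 against AGS and 7.68e-13 against MKN1). Between MKN1 and AGS CLDN18 differed by −0.26 ± 0.09 (limma adjusted p 0.0197), both at background. The call was lost when any of 4 arrays was left out, with adjusted p of 0.0634 without AGS Rhosin, 0.0601 without AGS JK139, 0.0845 without MKN1 Rhosin and 0.0701 without MKN1 JK139.

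MUCL3 codes for a mucin-like membrane protein. It read 9.37, 9.76, 9.16 and 9.54 in SNU601, while AGS lay between 3.87 and 4.36 and MKN1 between 4.05 and 4.35. SNU601 was at least 28.8-fold higher than either other line (limma adjusted p 2.16e-12 against AGS and 1.26e-12 against MKN1). Its other 2 clusters had SNU601 means of 9.03 and 8.67 and stood at or under 4.07 on average in the other lines.

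AGR2 codes for a protein disulfide isomerase needed to fold mucins. It read 7.93, 8.30, 7.73 and 7.98 in SNU601, between 3.20 and 3.53 in AGS and between 2.14 and 3.25 in MKN1. SNU601 was at least 10.4-fold higher than either other line (limma adjusted p 5.53e-10 against AGS and 4.47e-11 against MKN1). AGS and MKN1 differed by −0.69 (MKN1 minus AGS, adjusted p 0.00154), a difference between values at background. AGR3, its close relative and neighbour on chromosome 7, averaged 4.93 in SNU601, 1.72 in MKN1 and 1.53 in AGS and was not tested, because its overall mean lay under the filter.

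ANXA10 codes for a calcium-dependent membrane-binding protein typical of gastric epithelium. It read 6.97, 7.89, 7.80 and 7.19 in SNU601, between 3.47 and 3.83 in AGS and between 3.63 and 4.03 in MKN1. SNU601 was at least 7.25-fold higher than either other line (limma adjusted p 3.14e-09 against AGS and 1.43e-09 against MKN1), and the other lines overlapped. The 4 SNU601 arrays spread over 0.92, against 0.11 for CLDN18 in the same arrays.

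SOX2 lay above background in AGS and SNU601 and at background in MKN1. AGS read 7.17 with DMSO, 5.26 with Rhosin, 6.99 with JK136 and 7.12 with JK139. SNU601 read 6.93, 6.31, 7.002 and 6.71 in that order, and MKN1 4.12, 4.23, 4.13 and 4.49. MKN1 lay under both other lines without overlap, with AGS at least 4.08-fold and SNU601 at least 4.38-fold higher than MKN1 (limma adjusted p 5.28e-06 and 3.89e-06). The test of SNU601 against AGS was not passed, at 0.10 with a 95% interval from −0.46 to 0.67, and without the AGS Rhosin array the difference turned to −0.28.

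Counted over the members, 6 were lower and 0 higher in MKN1 than in AGS, with 66.3% of all 8930 genes tested called in that comparison, 31% lower and 35.3% higher. Of these 6, CTSE, LYZ, TFF1 and SOX2 lay above background in AGS, and 2, CLDN18 and AGR2, lay at background in both lines. SNU601 was higher than AGS in 7 and lower in 0 (52.7% of all genes called, 29.9% higher and 22.8% lower), and higher than MKN1 in 9 (63.4% called, 32.3% higher and 31.1% lower). At 2-fold or more the called share of all genes was 16.2%, 8.34% and 16%, and 4, 7 and 9 members were called. All 9 members passed the filter on low values, but CLDN18, TFF2, ANXA10, AGR2 and MUCL3 did so through SNU601 only. LYZ, TFF1 and SOX2, at background in MKN1, did so through AGS and SNU601. These counts, and the p-values of all these genes against a line where they lay at background, are therefore a description. With genes at their bound, the median was −4.13 over the 4 members above background in MKN1 or AGS, 1.93 over 9 for SNU601 minus AGS and 3.93 over 9 for SNU601 minus MKN1. The median of all genes tested was 0.021, 0.051 and 0.023, and nothing is read from the contrast. The 4 arrays of a line had different treatments and are not stated to be separate cultures, so the p-values measure the spread between these arrays.

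**Figure D2:**
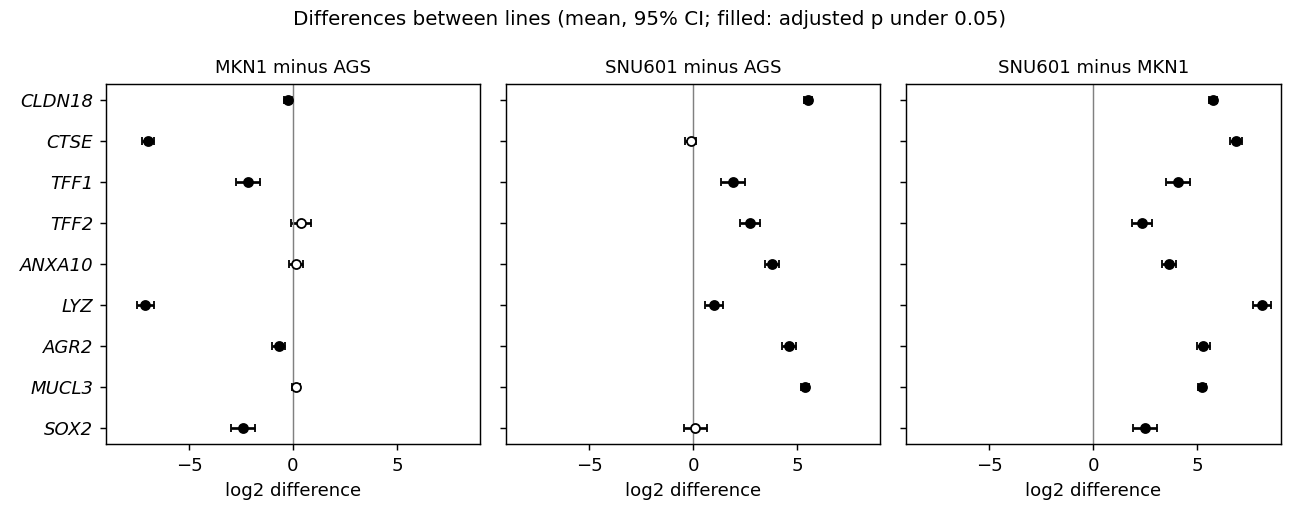
Each panel shows the log2 difference between 2 lines (horizontal axis) for the 9 genes, with 95% confidence intervals from limma, filled points marking an adjusted p under 0.05. The right panel has all 9 points above 0, the middle panel 7 filled points above 0 with CTSE and SOX2 open at 0, and the left panel CTSE and LYZ near −7. Differences from a line at background are the fitted values, not bounds.

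Transcription factors of stomach and foregut, not all of them of the epithelium and without SOX2, were measured for 11 of 13 listed genes. At a limma adjusted p under 0.05, 6 were called lower and 3 higher in MKN1 than in AGS. SNU601 had 8 called higher and 2 lower than MKN1, and 4 higher and 1 lower than AGS. The other factors of the list were not called in the comparison at hand. Of all 8930 genes tested, 66.3%, 63.4% and 52.7% were called in these comparisons. The list medians were −0.89, 1.16 and 0.18 in that order, against 0.021, 0.023 and 0.051 for all genes tested. GATA4, a zinc finger factor of foregut endoderm, averaged 6.46 in AGS, 6.44 in SNU601 and 4.38 in MKN1, at background in MKN1 alone as SOX2 was. GATA6 had 7.87, 8.05 and 6.84, and FOXA2, a pioneer factor of endoderm, 6.26, 6.66 and 5.37.

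SPDEF, a regulator of mucous secretory cells, had the largest difference of the list between SNU601 and AGS, with a SNU601 mean of 7.19 against 5.15 in AGS and 5.17 in MKN1 (difference from AGS 2.04 ± 0.10, limma adjusted p 1.02e-08). BARX1 was higher in MKN1 than in AGS by 1.60 ± 0.09 and NKX6-3 by 0.64 ± 0.13, both homeobox genes of the stomach (limma adjusted p 2.29e-08 and 8.83e-04). FOXA1 averaged 6.25 in AGS and lay at background in MKN1 (4.30), and KLF5 differed by −1.47 ± 0.10 between MKN1 and AGS.

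Other pit cell genes were measured for 7 of 10 listed, and 3 of these were tested. CAPN8, a calpain protease of gastric pit cells, averaged 8.54 in SNU601, 6.30 in AGS and 4.46 in MKN1, the order of TFF1. FOXQ1, a forkhead factor that regulates gastric mucin, had 7.80, 7.45 and 4.51, and PSCA, a surface protein, 6.37, 5.12 and 5.63. CAPN9, not tested because of its low overall mean, was above background in SNU601 alone at 6.38. GKN1 and GKN2, gastrokines of mature pit cells, were at background in every line, with means from 1.69 to 2.17. MUC5AC and MUC6, the gastric gel-forming mucins, were not analysed here.

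Gland base and chief cell genes were measured for 3 of 10 listed. LGR5, a receptor of stem cells at the gland base, averaged 10.06 in AGS, 8.86 in SNU601 and 4.35 in MKN1. PGC, the chief cell pepsinogen, had 4.69, 5.02 and 3.85, near the background level. AQP5, the remaining gene measured, had 5.34 in AGS, 6.14 in SNU601 and 5.01 in MKN1, above background in every line. Parietal and endocrine genes were measured for 5 of 9 listed, and CBLIF, CCKBR, CHGA and SST were at background in every line. GAST alone lay above it, at 5.49 (AGS), 5.48 (MKN1) and 5.38 (SNU601), and 0 of its 3 line differences passed the test.

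Markers of other cell types also differed between lines. Of all genes, 60.5% lay above background in MKN1, 58.3% in AGS and 57.9% in SNU601. Of 6 mesenchymal markers measured, 4 lay above background in MKN1 and 0 in AGS or SNU601. FN1, fibronectin, had 9.59 in MKN1 against 3.42 and 3.50, and VIM, vimentin, 8.26 against 4.38 and 4.16. ZEB2 (3.58 in MKN1) and TWIST1 (2.60 in MKN1) lay at background in every line. Of 7 general epithelial markers 5 were above background in MKN1 and 7 in each other line. Between MKN1 and AGS, 4 of the 7 were called lower and 3 higher in MKN1. EPCAM had 6.49 in MKN1 against 10.04 in AGS and 10.19 in SNU601, and ESRP1 4.11 against 8.95 and 8.86. The 3 higher in MKN1 than in AGS were the keratins KRT18 (10.75 against 9.63), KRT19 (9.72 against 8.27) and KRT8 (6.55 against 6.16). The part of these programmes in the low gastric genes of MKN1 was not tested.

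Squamous markers were measured for 6 of 8 listed. Of these 6, 2 lay above background in AGS, 3 in MKN1 and 3 in SNU601. KRT14, a basal keratin, had 6.36 in MKN1 against 4.61 in AGS and 4.86 in SNU601. KRT15 had 5.16 in MKN1 against 4.30 and 4.65. KRT5 had 4.49 in MKN1, at background, and KRT13 was highest in SNU601 at 7.12. DSG3 and SPRR1B lay at background in every line, highest in SNU601 at 4.56 and 2.90. Of 6 intestinal markers measured, CDX2 had 6.40 in AGS, 5.26 in MKN1 and 5.95 in SNU601. VIL1, a brush border protein, had 7.94, 4.31 and 7.52. KRT20 lay above background in SNU601 alone at 5.03, and GUCY2C in no line.

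By treatment, the largest difference of a member between 2 arrays of a line belonged to SOX2. In AGS Rhosin minus DMSO was −1.91, a size of 3.76-fold, the lowest difference of all 8930 genes tested in that pair of arrays, of which 0.202% were at least 2-fold lower. In SNU601 it was −0.63, where 1.76% of genes differed as much in size, and in MKN1, at background, 0.11. JK136 differed from DMSO by −0.18 in AGS and 0.068 in SNU601, and JK139 by −0.055 and −0.22. These are single pairs of arrays with no replicate. The low SOX2 value of the AGS Rhosin array still lay above background.

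Over the 3 lines, SOX2 differed between Rhosin and DMSO by −0.81 ± 0.30 with a 95% interval from −1.46 to −0.16 (unadjusted p 0.0191, limma adjusted p 0.708), lower in 2 of 3 lines. It did not pass the test. Without the AGS Rhosin array the difference was −0.30 (adjusted p 0.944), without all AGS arrays −0.26 (0.961), and without the arrays of MKN1 −1.27 (0.489). Between JK139 and JK136 SOX2 differed by 0.065 with an interval from −0.59 to 0.72, which leaves room for differences of either sign. JK136 exceeded Rhosin by 0.77 ± 0.30 (adjusted p 0.491) and JK139 exceeded it by 0.84 ± 0.30 (adjusted p 0.600), neither past the threshold. These comparisons share the 3 Rhosin arrays.

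**Figure D3:**
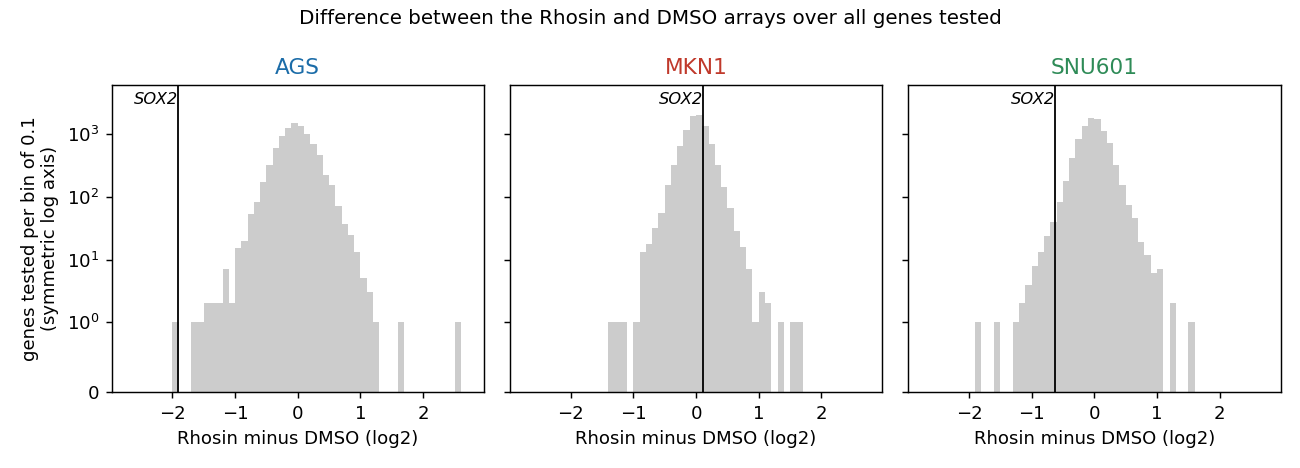
Bars count genes (vertical symmetric log axis) by the difference between the Rhosin and the DMSO array of a line (horizontal axis, log2, bins of 0.1), and the line marks SOX2. SOX2 lies at the lower end in AGS (−1.91), on the lower side in SNU601 (−0.63) and in the middle in MKN1 (0.11).

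Of 6 SOX2 relatives and partners listed, SOX9 alone passed the filter. SOX9, a progenitor factor of gut epithelium, differed between Rhosin and DMSO by 0.51 in AGS and −0.15 in SNU601. SOX2-OT, the transcript that overlaps SOX2, averaged 2.50 in AGS, 2.27 in MKN1 and 2.51 in SNU601, all at background. SOX1, SOX3 and SOX21 were at background in every line. POU5F1 averaged 4.71 in AGS, 3.99 in MKN1 and 4.88 in SNU601, in AGS and SNU601 a little above the background level. LYZ was the other member that had its lowest value with Rhosin in both AGS and SNU601, −0.57 and −0.24 from DMSO, and its second cluster read 7.83 with DMSO and 6.82 with Rhosin in AGS and 9.05 and 8.59 in SNU601. After the mean of each line was taken off, SOX2 and LYZ correlated at r = 0.77 over the 12 arrays, given as a description. This pair was picked among all pairs of members. By the same measure SOX2 and MUCL3 had r = −0.62, and CLDN18 and AGR2 had r = −0.88. CLDN18 and AGR2 both varied most in MKN1 (SD 0.20 and 0.46), where they lay at background.

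Within AGS the arrays also spread over 1.55 for TFF1 and over 1.08 for LYZ. TFF1 differed from DMSO by −1.38 with JK136, rank 4 from the bottom of 8930 genes, of which 0.235% were at least 2-fold lower. The difference was −0.73 with JK139 and 0.17 with Rhosin. In SNU601 the signs were positive, with TFF1 above DMSO by 0.69 with JK136, 0.40 with JK139 and 0.61 with Rhosin. Limma's test of an interaction of line with any compound gave an adjusted p of 0.99986 for TFF1, and 0 of the 9 members passed it, 0 also at an unadjusted p under 0.05, with 0% of all genes called. That interaction test pooled the 3 compounds of a line against its DMSO array, so a line difference particular to 1 compound was not tested. Over the 3 lines TFF1 differed between JK136 and DMSO by −0.39 ± 0.31 (limma adjusted p 0.936).

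In SNU601 the DMSO array was the lowest of the 4 for TFF1, TFF2 and ANXA10. TFF2 was above DMSO by 0.60 with Rhosin, 1.19 with JK136 and 0.53 with JK139. The JK136 difference had rank 4 from the top, and 0.056% of genes were at least 2-fold higher there. ANXA10 was above DMSO by 0.92, 0.83 and 0.22. Since all 3 differences use the same DMSO array, they are not separate observations. Of the other pit cell genes, 5 lay above background in SNU601. In the order Rhosin, JK136 and JK139, PSCA differed from DMSO by 1.03, 0.16 and 0.53, CAPN8 by 0.38, 0.24 and 0.34, and VSIG1 by 0.34, 0.34 and 0.08. FOXQ1 differed by 0.04, 0.15 and 0.17, and CAPN9 by 0.15, −0.17 and −0.11. CLDN18, CTSE and LYZ stayed within 0.24 of DMSO in SNU601 for every compound.

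**Figure D4:**
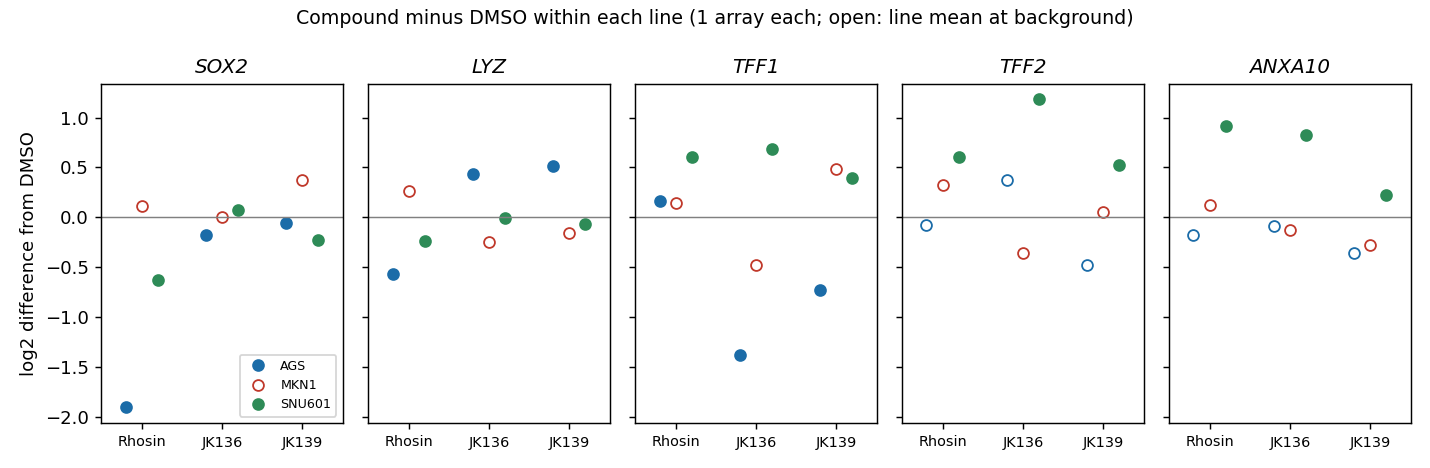
The log2 difference of each compound array from the DMSO array of the same line (vertical axis) is shown for 5 members, with open circles where the line's mean lay at background. AGS stands apart for SOX2 with Rhosin (−1.91) and for TFF1 with JK136 (−1.38), and the SNU601 points of TFF2 and ANXA10 lie above 0 for all 3 compounds.

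Of 54 tests of a member in a pair of treatments, limma called 0, and 10 had an unadjusted p under 0.05. The smallest adjusted p was 0.410, for MUCL3 between JK136 and Rhosin (−0.38 ± 0.10). Over all genes 0% were called in each of the 6 pairs. Unadjusted p under 0.05 was met by 3 members and 6.27% of all genes for Rhosin minus DMSO, by 0 and 5.25% for JK136 minus DMSO and by 1 and 2.44% for JK139 minus DMSO. It was met by 3 and 9.09% for JK136 minus Rhosin, 2 and 7.42% for JK139 minus Rhosin, and 1 and 5.53% for JK139 minus JK136. MUCL3 was higher with Rhosin than with DMSO by 0.37 ± 0.10, in 3 of 3 lines, and AGR2 by 0.53 ± 0.17, in 3 of 3 lines, with unadjusted limma p of 0.00429 and 0.0110, smaller than that of SOX2, and adjusted p of 0.563 and 0.694. In AGS a second MUCL3 cluster read 4.23 with DMSO and 3.92 with Rhosin, the other direction. In AGS and MKN1 both genes were at background, and in SNU601 they were higher by 0.39 and 0.37. The AGR2 difference in MKN1 was 1.11, where 0.0896% of genes were at least 2-fold higher. CTSE in MKN1 was 0.80 above DMSO with JK139, rank 6 from the top there.

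By Pearson's r over the 12 arrays, which mostly reflects the 3 line levels, the genes most like CLDN18 were PIWIL1 (0.998), AFAP1-AS1 (0.996) and DHRS2 (0.994). CTSE was most like MYO1D (0.999), EPCAM (0.997) and TNIK (0.996), and LYZ like SNAR-D (0.997), DSC2 (0.997) and ST14 (0.996). AGR2 was nearest to PIWIL1 (0.991), FRRS1 (0.989) and CYSTM1 (0.988), and MUCL3 to DGAT1 (0.995), AFAP1-AS1 (0.993) and CLDN18 (0.993). ANXA10 was nearest to ABHD2 (0.995), EHF (0.992), an epithelial ETS factor, and SPNS2 (0.989). TFF2 was nearest to ANXA10 (0.977), HSD17B7P2 (0.974) and TRIM31 (0.972). TFF1 followed HOXC9 (0.982), HID1 (0.981) and LMBRD1 (0.981). SOX2 was most like PSPC1 (0.977), DGCR11 (0.975) and NOMO1 (0.974), and with line means taken off like TSPAN6 (0.954), TEX30 (0.953) and GTF2B (0.946).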

How the data were processed

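The 12 arrays were grouped by cell line and treatment from their titles. The deposited values are log2 signals per transcript cluster, made by the authors with RMA in Affymetrix Expression Console, per the submitters' processing notes. Versions and genome build: not given in the sources used here. Of 53617 clusters, 16098 (30.0%) had a symbol in the platform annotation. For each of 14884 symbols the brightest cluster on average was kept, and the 8930 genes with a mean of at least 4.61 (40th percentile) entered limma 3.58.1 (R 4.3.3) with line and treatment as fixed terms and 6 residual degrees of freedom. P-values were adjusted by Benjamini-Hochberg over all genes tested, and an adjusted p under 0.05 was called. The interaction test crossed line with any compound, the 3 compounds of a line being pooled. A background level from olfactory receptor genes had been planned, but 1 such gene had a symbol, so the 40th percentile was used. All members were named, with up to 4 genes of each other list per comparison of lines, genes fixed by name, and the 3 genes most like each member; further list genes, among them those given by treatment, were chosen after their values were seen. The members and lists were chosen with earlier results of these data known. The model was checked on simulated data. Alternatives covered normalization, filter, prior, array weights, clusters, the block and arrays left out. Lower bounds for members at background in 1 of the lines compared were added after seeing the data.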

Additional observations from a re-analysis of the deposited data

Results flagged for a closer look

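Among 27 sets of 4 arrays (9 members in 3 lines), 1 held an array far from the other 3: SOX2 in AGS, where Rhosin read 5.26, a gap of 1.73 to the nearest array. Chance would give about 1 in 20 such sets, or 1.35 of 27. The culture has no second array, and its cause was not tested.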

How the results depend on the processing

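The counts of members called kept within 1.5 times of the main count under every alternative run: 4 to 7 for MKN1 minus AGS, 7 for SNU601 minus AGS, 9 for SNU601 minus MKN1, and 0 for the 6 treatment pairs and the interaction. The number of members above background was 4 in AGS and 9 in SNU601 throughout. In MKN1 it moved from 1 to 2 when the arrays were quantile normalized again and to 4 with the level at the 30th percentile (an alternative chosen after seeing the data), and lay between 1 and 2 when single arrays were left out. Of 705 values of single members under alternatives, 688 kept their direction and side of the threshold, 4 lost a call (CLDN18, given above) and 12 reversed, all of SOX2 and none past the threshold in either setting. TFF2 in MKN1 minus AGS passed without MKN1 JK136 (0.69, adjusted p 0.00205). SOX2 in SNU601 minus AGS (main 0.10) turned to −0.085 with array weights and −0.28 without AGS Rhosin, and ranged from −0.28 to 0.27 with arrays left out. Its JK136 minus DMSO difference (main −0.035, range −0.25 to 0.19) turned to 0.19, 0.16 and 0.035 without AGS DMSO, MKN1 JK136 or all AGS arrays. JK139 minus DMSO (main 0.030, range −0.19 to 0.25) turned to −0.067 with array weights and to −0.13, −0.19 and −0.14 without AGS JK139, MKN1 DMSO or all MKN1 arrays. JK139 minus JK136 (main 0.065, range −0.13 to 0.24) turned to −0.099, −0.13 and −0.086 without AGS JK139, MKN1 JK136 or all MKN1 arrays. Without the replicate block of lines and treatments, 6, 7 and 9 members were called in the line comparisons. The causes of these shifts were not tested. The interaction could not be fitted without a DMSO array, and the levels from olfactory receptor genes were not run.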
